A study of Homo sapiens with 4 samples.

Results

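The NKX homeobox genes were described through the EZH2 peaks that lay within 20 kb of 10 gene starts in HEK293 cells, a human embryonic kidney line. A peak was a member when at least 1 of its bases fell in that window, and the starts are known to the nearest 1 kb in hg19. On chromosome 20, band 20p11.22, these were NKX2-2 at 21495000 and NKX2-4 at 21378000, and on chromosome 14, band 14q13.3, NKX2-1 at 36989000 and NKX2-8 at 37052000. Chromosome 10 held NKX2-3 at 101293000 (10q24.2) and NKX6-2 at 134600000 (10q26.3), and chromosome 4 held NKX3-2 at 13546000 (4p15.33) and NKX6-1 at 85419000 (4q21.23). NKX2-5 starts at 172662000 on chromosome 5 (5q35.1) and NKX2-6 at 23564000 on chromosome 8 (8p21.2). Exons and introns under the peaks were not analysed here. In all 23 of 66093 deposited peaks were members, 8 of 35016 in the H3.1-K27M list and 15 of 31077 in the H3.1-WT list. The cells carried H3.1-K27M or H3.1-WT from a lentivirus, were selected with G418 and were induced with 1 µg/ml doxycycline, so both genotypes shared the virus, the drug and the inducer. The labels do not say whether each line was a clone or a pool, and nothing in them removes the histone H3 genes that the cells already had. EZH2 was assayed by CUT&RUN, in which DNA beside a bound antibody is cut and released from permeabilised cells, and a library made with anti-rabbit HRP in its place was the negative control. Each genotype had 1 EZH2 and 1 HRP library and 1 peak list made from that pair. The mutant's titles read H31, and its genotype was taken from the genotype label. With 1 library per group no difference between genotypes could be tested, and every contrast below sets 2 lists side by side. Depth is unknown, since peak lists hold no reads, and its part in the number and strength of peaks was not tested.

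NKX genes encode homeodomain transcription factors that switch on organ and cell identities in the embryo. NKX2-1 acts in lung, thyroid and ventral forebrain, NKX2-5 in heart, NKX3-2 in cartilage of the axial skeleton, and NKX2-2, NKX6-1 and NKX6-2 in the ventral neural tube, the first pair also in the endocrine pancreas. In cell types that do not use them, such genes are typical targets of PRC2, the Polycomb complex whose catalytic subunit EZH2 methylates lysine 27 of histone H3. In the K27M mutant that lysine is a methionine, which interferes with PRC2. PRC2 in mammals gathers on stretches rich in CG dinucleotides, many of which lie at promoters of developmental genes.

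RefSeq promoter sequences were available for 7 of the 10 genes, NKX2-1, NKX2-2, NKX2-3, NKX2-4, NKX2-8, NKX3-2 and NKX6-1, with 9 promoters in all, since NKX2-1 and NKX2-2 have 2 each. Each spans 250 bases before to 50 bases after a start. Shown here, 5′ to 3′ on the gene's own strand (the minus strand in each case, GRCh38.p14), are both NKX2-2 promoters, because the strongest NKX2-2 peaks lay upstream of the start, then NKX2-4, which had a peak at its start in one list, NKX3-2, which had one in both, and NKX2-8, which had none in either. Capitals mark CG dinucleotides.
NKX2-2 first promoter, chr20:21522640-21522939: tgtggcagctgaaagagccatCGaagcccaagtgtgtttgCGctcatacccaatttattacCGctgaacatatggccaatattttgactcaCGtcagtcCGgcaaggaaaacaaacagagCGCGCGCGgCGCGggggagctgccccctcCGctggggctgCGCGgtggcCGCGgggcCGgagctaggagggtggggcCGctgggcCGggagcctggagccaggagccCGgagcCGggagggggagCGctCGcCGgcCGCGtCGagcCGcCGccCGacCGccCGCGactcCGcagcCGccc
NKX2-2 second promoter, chr20:21512911-21513210: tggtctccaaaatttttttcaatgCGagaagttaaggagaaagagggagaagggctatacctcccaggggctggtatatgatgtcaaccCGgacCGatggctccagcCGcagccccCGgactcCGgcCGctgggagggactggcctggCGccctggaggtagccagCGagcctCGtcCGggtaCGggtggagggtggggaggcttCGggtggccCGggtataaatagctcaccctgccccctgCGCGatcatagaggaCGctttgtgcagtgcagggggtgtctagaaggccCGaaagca
NKX2-4, chr20:21397477-21397776: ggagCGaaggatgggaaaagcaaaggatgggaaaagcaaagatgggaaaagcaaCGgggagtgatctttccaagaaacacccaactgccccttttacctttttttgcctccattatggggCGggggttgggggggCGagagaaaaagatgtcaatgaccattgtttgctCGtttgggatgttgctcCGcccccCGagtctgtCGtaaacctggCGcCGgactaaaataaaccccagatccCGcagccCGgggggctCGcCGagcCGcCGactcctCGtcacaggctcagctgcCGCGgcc
NKX3-2, chr4:13544459-13544758: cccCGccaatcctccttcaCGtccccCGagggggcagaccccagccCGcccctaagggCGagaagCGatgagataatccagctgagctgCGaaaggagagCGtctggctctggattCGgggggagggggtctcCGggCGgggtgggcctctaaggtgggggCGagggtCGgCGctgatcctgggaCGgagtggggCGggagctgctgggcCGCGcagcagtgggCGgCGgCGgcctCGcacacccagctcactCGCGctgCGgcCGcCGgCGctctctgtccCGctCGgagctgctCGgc
NKX2-8, chr14:36582565-36582864: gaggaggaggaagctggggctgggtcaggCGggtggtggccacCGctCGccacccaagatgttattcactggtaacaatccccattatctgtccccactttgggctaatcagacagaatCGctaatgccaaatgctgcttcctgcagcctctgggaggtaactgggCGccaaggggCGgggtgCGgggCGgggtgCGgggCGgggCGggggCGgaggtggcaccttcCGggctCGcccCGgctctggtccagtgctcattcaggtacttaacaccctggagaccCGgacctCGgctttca
The first NKX2-2 promoter held 35 CG in 300 bases, a number that 14.1% of the 35116 promoters in the table reached. The NKX3-2 promoter held 31, which 20.7% reached. The second NKX2-2 promoter held 18, NKX2-4 19 and NKX2-8 17, each above the median of 14.0 over all promoters. Over the 9 promoters the number ran from 11, at the second NKX2-1 promoter, to 35, with a median of 19.0, and 8 of 9 lay above the median of all promoters. Median GC content was 64.0% over the 9 and 58.7% over all promoters, and the median ratio of observed to expected CG was 0.647 over the 9 and 0.579 over all. Of these, NKX2-8 had no EZH2 peak within 20 kb, and NKX2-4 had a weak one in H3.1-WT alone (−log10 q 1.93). Whether CG number goes with the presence of a peak was not tested. The core sequence CAAGTG, read by NK2-class homeodomains, occurred on either strand in the first NKX2-2 promoter and the second NKX2-1 promoter, 2 of 9, against 11.5% of all promoters. These letters are a description of the windows and not a sign of binding. The peaks are in hg19 and the promoters in GRCh38.p14, so the promoters were not placed inside the peaks.

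EZH2 peaks lay near 5 of the 10 genes in the H3.1-K27M list and near 8 in the H3.1-WT list, while 23.0% of all autosomal windows of the same length held a peak in H3.1-K27M against 29.0% in H3.1-WT. The peaks covered 12.3 kb of the 10 windows in H3.1-K27M against 30.5 kb in H3.1-WT, with a ratio of 0.403, while over all autosomal peaks that ratio was 1.04. These sets differ in strength. Peaks of a −log10 q of at least 5 held 7668 of 12284 member bases in H3.1-K27M and 19388 of 30502 in H3.1-WT. In the whole lists 75.5% and 58.1% of peaks lay under 2. No autosomal covered length ratio was computed at like strength, so a difference particular to these genes is not shown. NKX2-2, NKX2-5, NKX3-2 and NKX6-2 had peaks in both lists. NKX2-3, NKX2-4, NKX2-6 and NKX6-1 had peaks in H3.1-WT alone, NKX2-1 in H3.1-K27M alone, and NKX2-8 in neither. Covered length was lower in H3.1-K27M for 8 genes, higher for 1 and 0 in both lists for 1. How many autosomal windows had a peak in 1 list alone, or less coverage in H3.1-K27M, was not analysed here. These splits between the lists therefore have no background beside them. The number of peaks was 8 in H3.1-K27M (exact 95% Poisson interval 3.45 to 15.8) and 15 in H3.1-WT (8.40 to 24.7), with a ratio of 0.533. The exact 95% interval of that ratio, 0.196 to 1.34, holds both 1 and the autosomal ratio of 0.976. These intervals cover counting error only. No spread between libraries is known, so the direction at each gene describes these 2 lists.

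**Figure D1:**
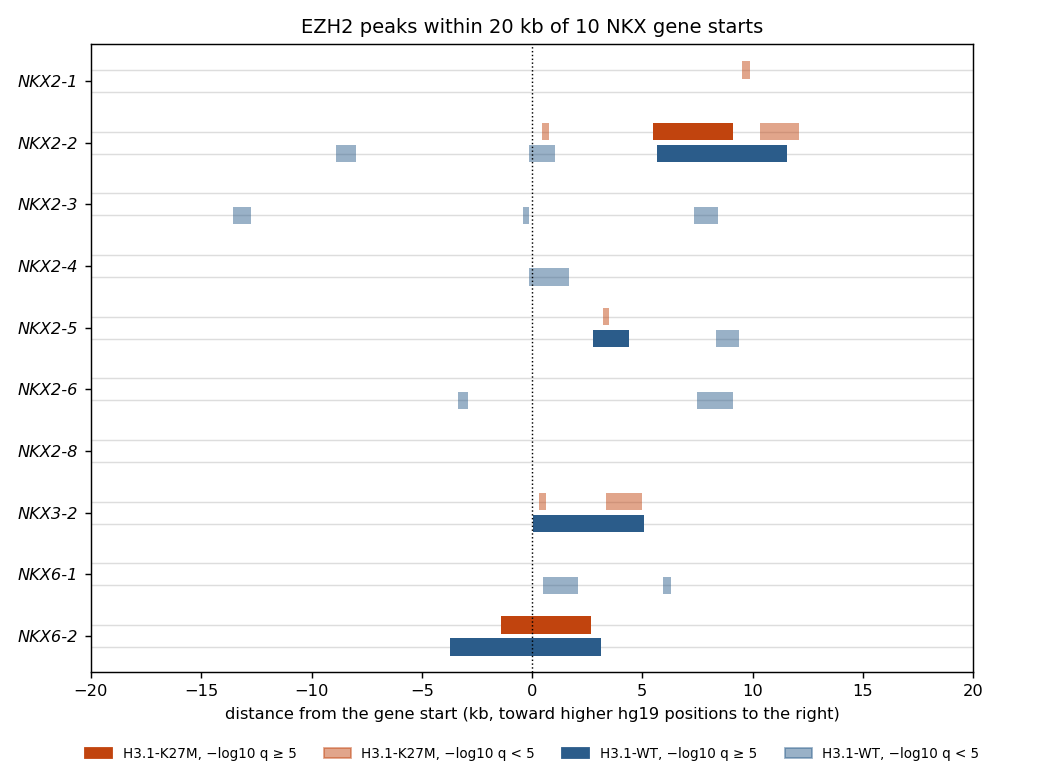
EZH2 peaks around each NKX gene start, with distance from the start in kb on the horizontal axis and 1 row per gene. H3.1-K27M peaks are drawn above H3.1-WT peaks and full colour marks a −log10 q of at least 5. The wide peaks sit at NKX2-2, NKX3-2 and NKX6-2, and the NKX2-8 row is empty in both lists.

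Positions below are distances from the start, positive toward higher hg19 positions. RefSeq places NKX2-1, NKX2-2, NKX2-4, NKX2-8, NKX3-2 and NKX6-1 on the minus strand, so for these a positive distance is upstream, and NKX2-3 on the plus strand. The fold enrichment of a peak is a linear ratio over background and, like its −log10 q, is the value given by the authors' caller. A −log10 q of at least 5 is called strong.

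NKX6-2, a ventral neural tube and oligodendrocyte factor, carried the strongest peak of the family in both lists. In H3.1-K27M it was a single peak of 4052 bases across the start, from -1.4 to 2.7 kb (chr10:134598611-134602662), with a fold enrichment of 11.1 and a −log10 q of 20.9. In H3.1-WT it was a single peak of 6846 bases, from -3.7 to 3.1 kb (chr10:134596267-134603112), with a fold enrichment of 14.6 and a −log10 q of 35.8. The H3.1-K27M peak lay wholly inside the H3.1-WT peak and covered 59.2% of it. By −log10 q these peaks ranked 17 of 35016 in the H3.1-K27M list and 49 of 31077 in the H3.1-WT list, so in each list they stood among the strongest calls.

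NKX2-2, which specifies ventral neurons, oligodendrocytes and pancreatic beta cells, had 3 peaks in each list and the largest covered length in both, 5642 bases in H3.1-K27M against 7972 bases in H3.1-WT. Its strongest peaks lay upstream of the start used here and not at it. In H3.1-K27M the peak from 5.5 to 9.1 kb (chr20:21500487-21504102) had a fold enrichment of 5.65 and a −log10 q of 6.81. In H3.1-WT the peak from 5.7 to 11.6 kb (chr20:21500673-21506567) had a fold enrichment of 12.5 and a −log10 q of 28.3. That single H3.1-WT peak of 5895 bases was matched by a pair of H3.1-K27M peaks, the second from 10.4 to 12.1 kb with a −log10 q of 1.79, and together they covered 78.8% of it. Beside the start both lists had a weak peak, 293 bases with a −log10 q of 2.14 in H3.1-K27M and 1164 bases with 1.76 in H3.1-WT. This was the only overlapping pair of the family in which H3.1-K27M had the higher fold enrichment, 3.82 in H3.1-K27M against 3.1 in H3.1-WT. H3.1-WT had a further weak peak from -8.9 to -8.0 kb with no counterpart in H3.1-K27M. RefSeq lists 2 promoters of NKX2-2, 9.73 kb apart on GRCh38.p14, and whether the upstream peaks cover the farther one was not tested.

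NKX3-2, a factor of sclerotome and cartilage, had a broad peak in H3.1-WT that appeared in H3.1-K27M as smaller pieces. In H3.1-K27M a peak of 287 bases from 0.3 to 0.6 kb (chr4:13546329-13546615) had a fold enrichment of 3.73 and a −log10 q just under 2, and a peak of 1635 bases from 3.4 to 5.0 kb had 3.27 and 1.34. In H3.1-WT a single peak of 5023 bases ran from the start to 5.1 kb upstream (chr4:13546031-13551053), with a fold enrichment of 5.37 and a −log10 q of 5.64. Both H3.1-K27M peaks lay inside it and covered 38.3% of it.

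NKX2-5, the cardiac member, had no peak within 1 kb of its start in either list. In H3.1-K27M a peak of 273 bases from 3.2 to 3.5 kb (chr5:172665199-172665471) had a fold enrichment of 3.54 and a −log10 q of 1.78. In H3.1-WT a peak of 1624 bases from 2.8 to 4.4 kb (chr5:172664751-172666374) had a fold enrichment of 5.51 and a −log10 q of 5.98, and the H3.1-K27M peak covered 16.8% of it. A weaker H3.1-WT peak from 8.3 to 9.4 kb, with a −log10 q of 1.70, had no counterpart.

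Peaks in H3.1-WT alone were found at 4 genes, and none of these peaks was strong. NKX2-3, a gut and spleen mesenchyme factor, had 3, of which the highest lay 7.3 to 8.4 kb downstream of the start (chr10:101300345-101301423, fold enrichment 4.73, −log10 q 3.99). Its other peaks lay just before the start, with a −log10 q of 2.47, and from -13.5 to -12.7 kb, with 1.97. NKX6-1, a factor of motor neurons and beta cells and the closest relative of NKX6-2, had a peak from 0.5 to 2.1 kb upstream (chr4:85419514-85421100, fold enrichment 4.11, −log10 q 2.98) and a smaller one from 6.0 to 6.3 kb with 1.63. The members of this pair therefore differed widely in these lists: NKX6-2 held 4052 covered bases and NKX6-1 0 in H3.1-K27M, and 6846 and 1914 in H3.1-WT. NKX2-4, the closest relative of NKX2-1, had 1 peak of 1828 bases over its start (chr20:21377847-21379674, fold enrichment 3.38, −log10 q 1.93). NKX2-4 and NKX2-2 lie 117 kb apart with no other protein-coding gene between them in RefSeq, and in both lists the larger covered length was at NKX2-2. NKX2-6, expressed in pharyngeal endoderm and heart of the mouse embryo, had a peak from -3.4 to -2.9 kb with a −log10 q of 1.57 and one from 7.5 to 9.1 kb (chr8:23571465-23573111) with a fold enrichment of 4.02 and a −log10 q of 2.78. In the whole lists 75.5% of peaks lay under a −log10 q of 2 in H3.1-K27M against 58.1% in H3.1-WT, and a gene without a peak in either list is not shown to lack EZH2.

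NKX2-1 and NKX2-8, neighbours 63 kb apart in band 14q13.3, were nearly bare. NKX2-1 had 1 peak in H3.1-K27M, of 395 bases from 9.5 to 9.9 kb upstream (chr14:36998496-36998890, fold enrichment 3.50, −log10 q 1.66), and 0 in H3.1-WT. It was the only H3.1-K27M peak of the family that no H3.1-WT peak overlapped. NKX2-8 had 0 in each list.

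**Figure D2:**
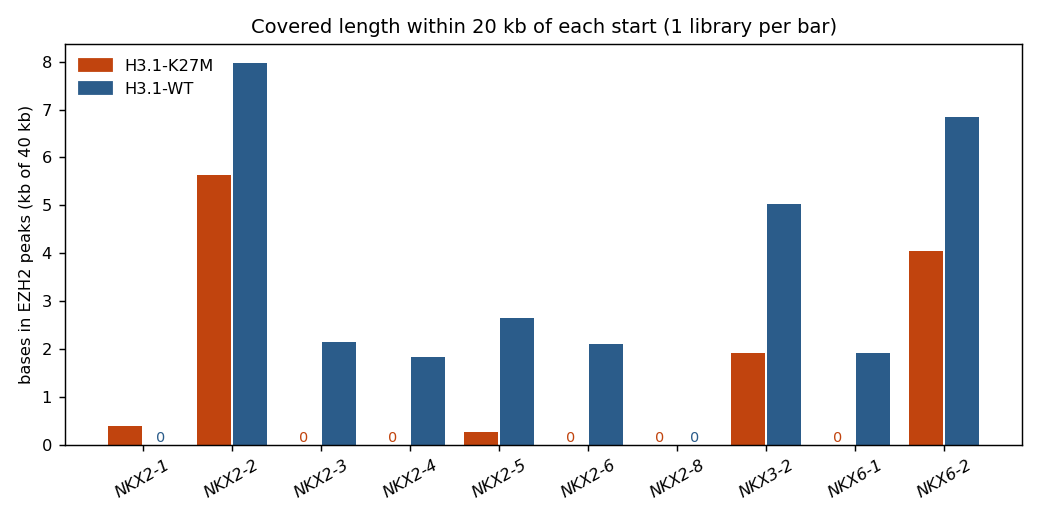
Length of EZH2 peaks within 20 kb of each NKX start, in kb of a 40 kb window, with H3.1-K27M bars left of H3.1-WT bars and 1 library behind each bar. NKX2-2 and NKX6-2 are the most covered genes in both lists, and 8 genes have the shorter bar in H3.1-K27M.

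Ordered by covered length, the H3.1-K27M list ran from NKX2-2 with 5642 bases through NKX6-2 with 4052, NKX3-2 with 1922 and NKX2-1 with 395 to NKX2-5 with 273. The H3.1-WT list began with the same genes in the same order, NKX2-2 with 7972, NKX6-2 with 6846 and NKX3-2 with 5023, then NKX2-5 with 2654, NKX2-3 with 2153, NKX2-6 with 2112, NKX6-1 with 1914 and NKX2-4 with 1828. The last 4 lay close together, and with 1 library per list no order among neighbours can be separated from error. Of all bases covered near the 10 genes, NKX2-2 and NKX6-2 held 78.9% in H3.1-K27M against 48.6% in H3.1-WT. Without them, a choice made after seeing the values, the remaining 8 genes had 2590 covered bases in H3.1-K27M against 15684 in H3.1-WT, with a ratio of 0.165. Since they held a larger share of the bases in H3.1-K27M than in H3.1-WT, leaving them out lowers the ratio by construction. By covered length, the mildest difference among genes with peaks in both lists was at NKX2-2, with a ratio of 0.708. NKX6-2 followed with 0.592, NKX3-2 with 0.383 and NKX2-5 with 0.103. By fold enrichment at the strong H3.1-WT peaks of these genes, NKX2-2 instead had the lowest quotient of H3.1-K27M over H3.1-WT, 0.450.

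**Figure D3:**
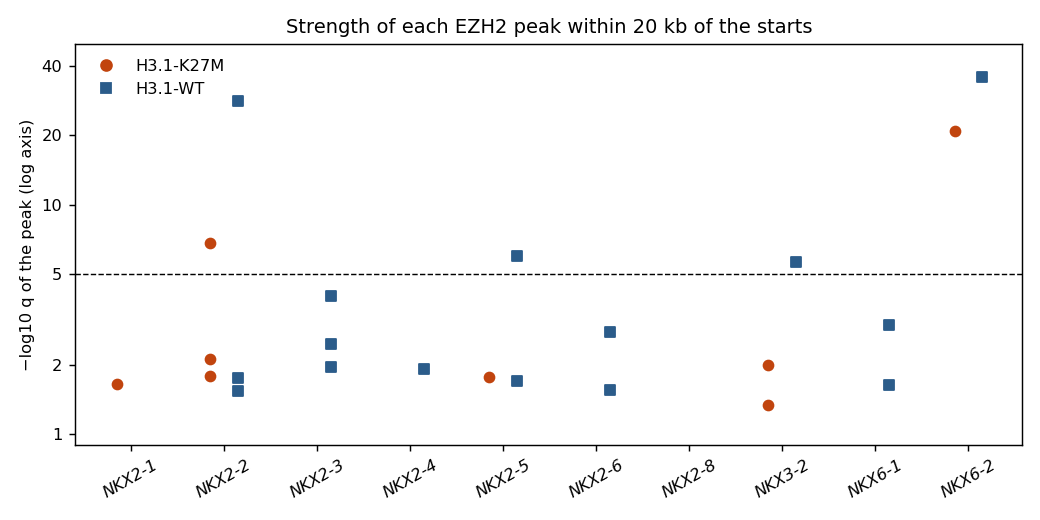
The −log10 q of every EZH2 peak within 20 kb of the NKX starts, on a log axis, with H3.1-K27M circles left of H3.1-WT squares and a dashed line at 5. Strong peaks lie at NKX2-2 and NKX6-2 in H3.1-K27M, and at NKX2-2, NKX2-5, NKX3-2 and NKX6-2 in H3.1-WT.

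Strong peaks stood at 2 of 10 genes in H3.1-K27M, where 0.925% of autosomal windows of 40 kb held one, and at 4 of 10 in H3.1-WT, where 2.91% did. Each of the 4 strong H3.1-WT peaks was overlapped by an H3.1-K27M peak, as were 83.5% of all 2024 strong autosomal H3.1-WT peaks. At all 4 the best overlapping H3.1-K27M peak had the lower fold enrichment, as did 95% of the 1690 overlapped autosomal ones. These peaks were all picked for strength in H3.1-WT, which by itself favours a lower value in H3.1-K27M. Picked instead for strength in H3.1-K27M, a choice made after seeing the values, 96.3% of the 619 strong autosomal peaks were overlapped in H3.1-WT, and 73.8% of those 596 still had the lower fold enrichment in H3.1-K27M, as did both such peaks of the family, at NKX2-2 and NKX6-2. Over the whole lists the median fold enrichment was 3.33 in H3.1-K27M against 3.42 in H3.1-WT. At the 4 peaks strong in H3.1-WT the quotient of the fold enrichments, H3.1-K27M over H3.1-WT, was 0.450 at NKX2-2, 0.644 at NKX2-5, 0.694 at NKX3-2 and 0.756 at NKX6-2, on both sides of the median of 0.671 over the autosomal peaks chosen in the same way. Over those chosen in H3.1-K27M the median was 0.757. The ratio of peak numbers, 0.533 over all member peaks, was 0.375 at a minimum −log10 q of 2 (3 H3.1-K27M and 8 H3.1-WT peaks), 0.400 at 3 (2 H3.1-K27M and 5 H3.1-WT peaks) and 0.500 at 5 (2 H3.1-K27M and 4 H3.1-WT peaks). Over autosomes the ratio was 0.588 at 2, 0.377 at 3 and 0.306 at 5. At a minimum of 10 the family had 1 peak in H3.1-K27M (NKX6-2) against 2 in H3.1-WT (NKX2-2 and NKX6-2), while the autosomes had 140 in H3.1-K27M against 710 in H3.1-WT (ratio 0.197). Such a peak lay in 0.225% of windows in H3.1-K27M against 1.09% in H3.1-WT. At 20 the family counts were the same and the autosomes had 18 in H3.1-K27M against 221 in H3.1-WT. The exact 95% interval of the member ratio was 0.0641 to 1.56 at 2, 0.0381 to 2.44 at 3, 0.0452 to 3.49 at 5 and 0.00847 to 9.60 at 10 and at 20, and each holds the autosomal value.

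NKX starts were compared with all 72014 autosomal windows of 40 kb, laid end to end in hg19. At least 1 peak lay in 16586 of them in H3.1-K27M against 20892 in H3.1-WT, and a strong one in 666 in H3.1-K27M against 2096 in H3.1-WT. Within 1 kb of the start a peak lay at 3 genes in H3.1-K27M (NKX2-2, NKX3-2 and NKX6-2) and at 6 in H3.1-WT (these and NKX2-3, NKX2-4 and NKX6-1), while of all autosomal windows of 2 kb 3.1% were touched by a peak in H3.1-K27M against 3.13% in H3.1-WT. Median covered length per gene was 136 bases in H3.1-K27M against 2132 in H3.1-WT, and the median over windows was 0 in both lists. In H3.1-K27M 1.94% of windows were covered at least as much as NKX2-2, 3.11% as NKX6-2, 7.02% as NKX3-2, 19.1% as NKX2-1 and 22.1% as NKX2-5. In H3.1-WT it was 0.408% for NKX2-2, 0.612% for NKX6-2, 1.30% for NKX3-2 and 4.56% for NKX2-5, and between 6.33% (NKX2-3) and 7.83% (NKX2-4) for the other 4 genes with a peak. The windows include unsequenced stretches and parts without genes, and other gene starts in hg19 were not analysed here, so the shares do not set the NKX genes against other promoters.

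**Figure D4:**
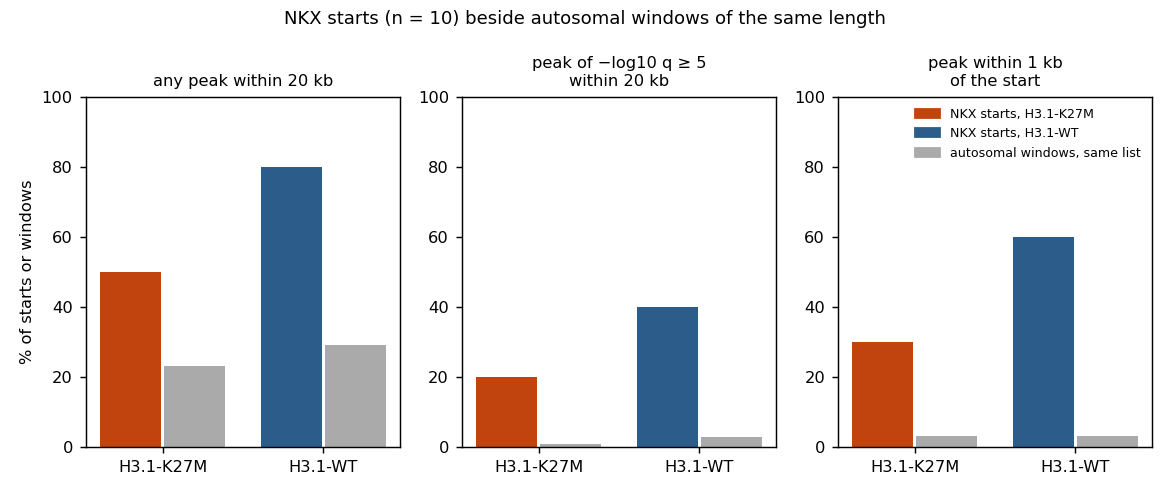
Percent of the 10 NKX starts with an EZH2 peak, in colour, beside the percent of autosomal windows of the same length in the same list, in grey, with H3.1-K27M left of H3.1-WT in each panel. In all 3 panels the coloured bar is taller than the grey one, and the H3.1-WT bar for NKX starts is taller than the H3.1-K27M bar.

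Summed over the 10 genes, coverage was concentrated close to the starts, but in H3.1-K27M few genes made up this sum. Within 5 kb NKX6-2 held 4052 and NKX3-2 1922 of the 6540 covered bases in H3.1-K27M. From 5 to 10 kb 1 NKX2-2 peak of 3616 bases made up most of the 4011, and from 10 to 20 kb another held all 1733. In that list 5 genes had no peak. Within 5 kb of a start 6.54% of bases lay in peaks in H3.1-K27M against 18.8% in H3.1-WT. From 5 to 10 kb the share was 4.01% in H3.1-K27M against 9.38% in H3.1-WT, and from 10 to 20 kb it was 0.867% in H3.1-K27M against 1.18% in H3.1-WT. In both lists the share was thus lower beyond 10 kb than nearer the starts. Farther out it was 0.271% in H3.1-K27M against 0.573% in H3.1-WT from 20 to 50 kb, and 0.592% in H3.1-K27M against 1.84% in H3.1-WT from 50 to 100 kb. The mean over autosomal windows was 1.20% in H3.1-K27M against 1.15% in H3.1-WT, so beyond 10 kb coverage lay under that mean in all 3 distance ranges in H3.1-K27M, and on both sides of it in H3.1-WT. The width of the window therefore mattered little: the outermost member peaks lay 10.4 kb from a start in H3.1-K27M (NKX2-2, −log10 q 1.79) and 12.7 kb in H3.1-WT (NKX2-3, 1.97). The nearest peaks outside a window were at NKX2-6, 23.2 kb from the start in H3.1-K27M (−log10 q 1.91) against 22.8 kb in H3.1-WT (1.88). They overlapped, although within its window NKX2-6 had peaks in H3.1-WT alone. Outside the NKX2-1 window the nearest peaks lay 23.5 kb from the start in H3.1-K27M (−log10 q 1.47) against 26.3 kb in H3.1-WT (2.15). Rounding of the starts to 1 kb could not move any of these across the limit.

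**Figure D5:**
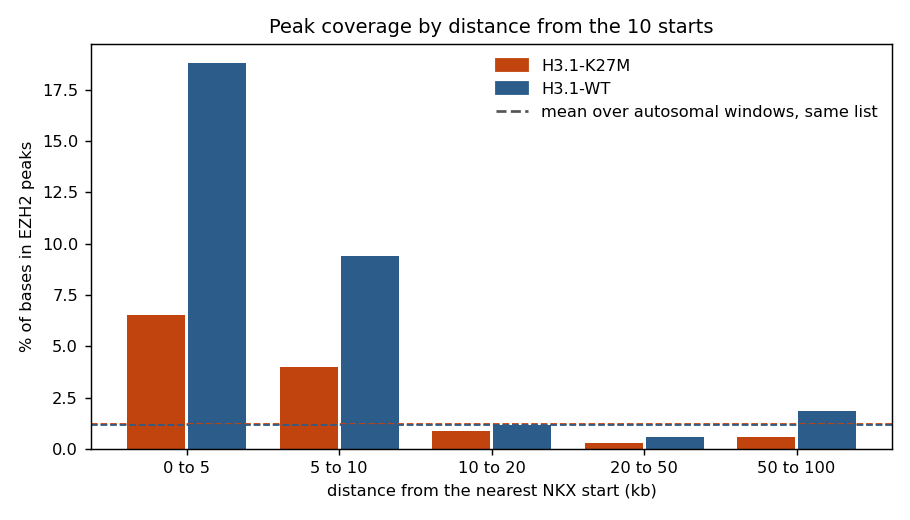
Percent of bases in EZH2 peaks by distance in kb from the nearest of the 10 NKX starts, with H3.1-K27M bars left of H3.1-WT bars and dashed lines at the mean over autosomal windows of each list. Coverage is highest within 5 kb, at 6.54% in H3.1-K27M against 18.8% in H3.1-WT, and is below 2% beyond 10 kb in both. Bars are sums over the 10 genes, and within 20 kb NKX2-2 and NKX6-2 hold 78.9% of the covered bases in H3.1-K27M against 48.6% in H3.1-WT.

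Most H3.1-K27M peaks of the family touched an H3.1-WT peak, while most H3.1-WT peaks of the family had no H3.1-K27M partner. Of the 8 H3.1-K27M peaks 7 shared at least 1 base with an H3.1-WT peak (87.5%, 95% Wilson interval 52.9% to 97.8%), against 35.3% of all 28323 autosomal peaks of that list. Of the 15 H3.1-WT peaks 5 shared a base with an H3.1-K27M peak (33.3%, 15.2% to 58.3%), against 34.7% of all 29018 autosomal ones, which is near the background. By length 91.0% of the bases in H3.1-K27M member peaks were also covered in H3.1-WT, and 36.7% of those in H3.1-WT member peaks were also covered in H3.1-K27M. Over all autosomal peaks the shares by length were 31.7% of the H3.1-K27M bases and 33.2% of the H3.1-WT bases. When each peak had to share 50% of its length with its partner, 2 of 8 H3.1-K27M peaks (25.0%) and 2 of 15 H3.1-WT peaks (13.3%) had one, against 14.6% of autosomal H3.1-K27M peaks and 14.2% of autosomal H3.1-WT peaks. Peaks of the family had a median width of 1015 bases in H3.1-K27M against 1164 in H3.1-WT, and the whole lists had 825 in H3.1-K27M against 778 in H3.1-WT. The peaks near 1 gene share their locus and are not independent of each other.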

How the data were processed

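Peaks came from CUT&RUN of EZH2 with an HRP control in HEK293 cells. Per the submitters' processing notes, which give no order or settings, the tools were MACS2, deepTools, Picard, cutadapt and Bowtie2 2.3.5.1, on build hg19. The deposited lists give per peak a fold enrichment, a linear ratio over background, and −log10 p and −log10 q values (p-value and q-value on a −log10 scale), made by the authors' caller from 1 EZH2 and 1 HRP library per genotype, by the peak names. How the caller scaled the EZH2 and HRP libraries is not stated, and depth is unknown.

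Member peaks, covered bases, overlaps of at least 1 base and autosomal windows were computed with Python 3.11.15, pandas 2.3.3 and numpy 2.4.6, intervals with scipy 1.17.1 and plots with matplotlib 3.10.9. Counting was tested on random intervals, with 0 disagreements with bedtools 2.31.1. Chromosome lengths came from GenomeInfoDb 1.38.1 and bands from circlize 0.4.16 under R 4.3.3; 0 peaks ended past an hg19 chromosome end. Promoters and gene neighbours came from RefSeq (GRCh38.p14). By rule, all 10 genes are named with their values. The genes and lists were chosen with earlier results of these data known. Other NKX genes were not analysed here, because no hg19 annotation was used. Peak lists hold no expression, so the cell type was not checked against markers. No test between genotypes was made. Alternatives changed the window, the peak minimum, list length, overlap and joining of peaks.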

Additional observations from a re-analysis of the deposited data

How the results depend on the processing

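Both ratios stayed under 1 in each alternative run, which for peak numbers at a set minimum was not particular to these genes. Over autosomes the ratio of peak numbers was 0.588 at a minimum −log10 q of 2 and 0.306 at 5, where the family had 0.375 and 0.500. Under the alternatives no autosomal ratio was computed for covered length, equal list lengths or joined peaks. The ratio of peak numbers ran from 0.375 with peaks of a −log10 q of at least 2 to 0.700 with equal list lengths, and the ratio of covered length from 0.332 with peaks of at least 2 to 0.489 with peaks within 5 kb joined. Without NKX2-2 and NKX6-2, chosen after seeing the data, they were 0.364 and 0.165. These genes held a larger share of the covered bases in H3.1-K27M than in H3.1-WT, so the fall in the covered length ratio follows from the choice. With strong peaks defined from a −log10 q of 10, 1 gene had one in H3.1-K27M against 2 in H3.1-WT, where 0.225% of autosomal windows had one in H3.1-K27M against 1.09% in H3.1-WT. With peaks of at least 5, 1 gene had a peak at the start in H3.1-K27M against 2 in H3.1-WT, and 100% of the 2 H3.1-K27M peaks left were overlapped by H3.1-WT. These alternatives leave fewer peaks by construction, and for peaks of at least 5 in both lists no matching autosomal shares were computed. A reciprocal overlap of 50% lowered the overlapped share to 25.0% in H3.1-K27M against 13.3% in H3.1-WT, where the autosomal shares were 14.6% in H3.1-K27M against 14.2% in H3.1-WT. Of 38 values under the other settings 31 stayed close, which for shares and the ratio of peak numbers means within the 95% counting interval, and for the other values within 1.5 times. With 8 and 15 peaks the counting intervals are wide. A peak number ratio of 0.700 beside 0.533 and an H3.1-K27M share of 66.7% beside 87.5% also counted as close, so this number says little about stability. No paired analysis was possible because there is 1 EZH2 library for H3.1-K27M and 1 for H3.1-WT, and for the same reason no replicate could be left out. How depth bears on the number, width and strength of peaks was not tested.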

Other observations

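Outside the 20 kb windows a few peaks within 100 kb of an NKX start stood out, chosen after their values were seen. A narrow peak 79.2 kb from the NKX2-8 start, on the side of its neighbour PAX9, was strong in H3.1-WT and nearly so in H3.1-K27M. In H3.1-K27M it was 258 bases wide (chr14:37131063-37131320) with a fold enrichment of 4.91 and a −log10 q of 4.16. In H3.1-WT it was 302 bases wide (chr14:37131017-37131318) with a fold enrichment of 7.34 and a −log10 q of 9.85. The only peak within 20 kb of NKX2-1 or NKX2-8 in either list, of 395 bases at NKX2-1 in H3.1-K27M, had a lower fold enrichment of 3.50.

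A wide peak lay 91.4 to 94.1 kb from NKX2-5 in H3.1-K27M, with 2716 bases, a fold enrichment of 3.62 and a −log10 q of 2.08. In H3.1-WT it ran from 91.2 to 97.0 kb, with 5794 bases, a fold enrichment of 5.25 and a −log10 q of 7.30. Its neighbour on that side is STC2, and which gene the peak belongs to was not tested.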
